A study of Mus musculus with 2 samples.

Results

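Expression of 10 genes that set or remove DNA methylation and Polycomb marks was followed through the neural stem cell lineage of the mouse subventricular zone. The genes were taken by symbol from the 27998 genes of the deposited single-cell table, of which 18470 had a UMI (a unique molecular identifier, 1 per captured transcript). They are Dnmt1 and Uhrf1 (maintenance of DNA methylation), Dnmt3a (new methylation), Tet1, Tet2 and Tet3 (oxidation of methylated cytosine), and Ezh1, Ezh2, Eed and Suz12 (the core of Polycomb repressive complex 2, PRC2). All 10 were found, and all 10 passed the minimum of 50 UMIs over the 4 cell classes compared. Their totals over all barcodes, before any filter, ran from 316 UMIs for Ezh1 to 4477 for Ezh2.

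Methylation of cytosine in CpG pairs is copied onto the new strand behind each replication fork. Uhrf1 recognises the half-copied site and recruits Dnmt1, while Dnmt3a can methylate sites that carried no mark. Tet enzymes oxidise the methyl group as a step toward its removal. PRC2 methylates lysine 27 of histone H3, a mark of silenced genes: Ezh1 and Ezh2 are alternative catalytic subunits, and Eed and Suz12 are needed by either. In the subventricular zone these systems are known for holding neurogenic and glial programmes in balance as stem cells leave quiescence and form neuroblasts.

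The cells came from the lateral subventricular zone of male C57BL/6 mice, and no transgene or treatment is named. One library was made from 22-month-old animals (8 mice pooled) and 1 from 2-month-old animals (4 mice pooled). Cells positive for GLAST, a glutamate transporter of radial glia-like stem cells and astrocytes, and negative for O4, Ter119 and CD45 were sorted, and 8000 sort events per library entered a droplet-based 3′ RNA-seq workflow. Each barcode carries a library number, 1 or 2, but no label ties that number to an age, so the ages were not compared.

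Library 1 held 1849 barcodes with 10440891 UMIs (median 4463 per barcode) and library 2 held 2088 barcodes with 13330251 UMIs (median 5763). After filtering, 1825 and 2064 cells remained in 17 clusters, and 4 barcode sequences occurred in both libraries. Clusters were named from fixed markers, and each class name below is short for "like": astrocyte-like cells (706 in library 1 and 578 in library 2), which would include quiescent stem cells, activated cells (419 and 455), dividing cells (274 and 547) and neuroblasts (305 and 391). All 16 astrocyte markers, 12 activation markers, 30 G2 and M phase markers and 17 neuroblast markers were detected in their own class in both libraries. The same markers named the clusters. Apart from Ndc80 in astrocyte-like cells of library 1, all were also detected in every other of these classes, so detection does not set the classes apart. Median depth differed between classes: about 3500 UMIs per cell in astrocyte-like cells, 7395 and 7112 in activated cells, 10157 and 10047 in dividing cells, and 3152 and 3821 in neuroblasts. Summed oligodendrocyte markers stood at 372 to 610 CPM (UMIs of a gene scaled to a library or class total of 1000000) in the 4 classes of library 1 and 71.1 to 239 CPM in those of library 2, and their part in the results was not tested. Levels below are CPM of UMIs summed over a class within a library, so that the class total is the base, with exact 95% Poisson intervals that cover counting error only. With 1 library per age and pooled mice there is no replicate, so no test is given, and a member is called higher or lower when its CPM differed by at least 1.5-fold in the same direction in both libraries.

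Transcripts of the pair that maintains DNA methylation were lowest in astrocyte-like cells and highest in dividing cells. Dnmt1, the maintenance methyltransferase, stood at 15.4 CPM (95% interval 11.1 to 21.0) in library 1 and 19.6 (14.2 to 26.4) in library 2 in astrocyte-like cells. In activated cells Dnmt1 reached 55.5 CPM (47.4 to 64.5) and 84.8 (75.04 to 95.5), in dividing cells 140 (126 to 154) and 136 (126 to 146), and in neuroblasts 50.7 (38.7 to 65.2) and 82.6 (69.9 to 97.0). For Dnmt1 both ends of this order held in both libraries, with intervals apart from the neighbouring class, while those of activated cells and neuroblasts overlapped. Uhrf1, which recognises hemimethylated DNA, had 21.5 CPM (16.3 to 27.8) and 28.2 (21.6 to 36.2) in astrocyte-like cells, 81.9 (72.0 to 92.8) and 120 (108 to 132) in activated cells, 162 (147 to 177) and 154 (143 to 164) in dividing cells, and 68.4 (54.3 to 85.0) and 107 (92.0 to 123) in neuroblasts. The order of the 4 classes for Uhrf1 was that for Dnmt1, in both libraries. Dividing exceeded astrocyte-like cells 9.06-fold (6.56 to 12.8) and 6.94-fold (5.10 to 9.67) for Dnmt1, and 7.53-fold (5.71 to 10.1) and 5.44-fold (4.20 to 7.16) for Uhrf1. The ratio was already 3.59-fold and 4.33-fold for Dnmt1, and 3.81-fold and 4.24-fold for Uhrf1, in activated cells.

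Dnmt3a, the de novo methyltransferase, had the opposite order. Astrocyte-like cells held 60.6 CPM (51.6 to 70.8) and 47.4 (38.7 to 57.4), neuroblasts 49.8 (37.9 to 64.3) and 39.9 (31.2 to 50.3), activated cells 34.0 (27.8 to 41.3) and 33.9 (27.8 to 40.8), and dividing cells 25.5 (19.9 to 32.1) and 28.2 (23.9 to 33.0). Neighbours in that order overlapped, but astrocyte-like and dividing cells did not in either library: Dnmt3a was 2.38-fold and 1.68-fold lower in dividing cells. This is a lower share of the RNA captured, not fewer UMIs per cell. Per 100 cells there were 22.8 and 18.0 Dnmt3a UMIs in astrocyte-like cells and 25.9 and 28.0 in the more deeply sampled dividing cells.

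The 3 Tet dioxygenases each followed a course of their own. Tet3 was highest in neuroblasts, at 74.3 CPM (59.6 to 91.6) and 90.4 (77.1 to 105), against 33.1 (26.6 to 40.8) and 35.5 (28.1 to 44.3) in astrocyte-like cells. Activated cells (47.6 and 46.0 CPM of Tet3) and dividing cells (49.9 and 51.8) lay between these classes, and the neuroblast interval stood apart from that of dividing cells in both libraries. Neuroblasts thus held 2.24-fold (1.65 to 3.05) and 2.55-fold (1.93 to 3.38) the Tet3 of astrocyte-like cells. Tet2 was highest in astrocyte-like cells, at 39.6 CPM (32.4 to 47.9) and 38.7 (30.9 to 47.9), and lowest in dividing cells, at 21.9 (16.7 to 28.1) and 17.1 (13.8 to 21.0). Activated cells had 26.4 and 19.3 CPM of Tet2 and neuroblasts 31.2 and 31.6. Tet2 was 1.81-fold and 2.26-fold lower in dividing than in astrocyte-like cells, but its UMIs per 100 cells were 14.9 and 14.7 in astrocyte-like cells and 22.3 and 17.0 in dividing cells. Tet1 varied least of the 3: its 8 values ran from 16.5 to 26.6 CPM, and no neighbouring classes were apart. The highest Tet1 class, neuroblasts, exceeded the lowest, dividing cells, 1.38-fold and 1.30-fold, with intervals that include 1.

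Ezh2, the catalytic subunit of PRC2 in proliferating cells, showed the widest range of the members. It stood at 33.5 CPM (26.9 to 41.3) and 32.8 (25.7 to 41.3) in astrocyte-like cells, 137 (124 to 151) and 144 (132 to 158) in activated cells, 375 (353 to 399) and 324 (309 to 340) in dividing cells, and 169 (146 to 194) and 147 (130 to 166) in neuroblasts. Dividing cells had 11.2-fold (9.01 to 14.1) and 9.89-fold (7.81 to 12.7) the level of astrocyte-like cells, activated cells 4.08-fold and 4.41-fold, and neuroblasts 5.04-fold and 4.48-fold. Ezh1, the alternative subunit best known from cells that no longer divide, ran the other way at low counts. Its 54 and 34 UMIs in astrocyte-like cells gave 20.3 CPM (15.3 to 26.5) and 15.5 (10.7 to 21.6), and its 16 and 46 UMIs in dividing cells gave 5.74 (3.28 to 9.32) and 8.48 (6.21 to 11.3). Activated cells had 12.9 and 18.9 CPM and neuroblasts 15.2 and 8.32 CPM of Ezh1, so the order of the classes differed between libraries, with activated cells highest and neuroblasts lowest in library 2, and no neighbours were apart. Ezh1 was 3.54-fold and 1.83-fold lower in dividing than in astrocyte-like cells. Per 100 cells, Ezh1 had 7.65 and 5.88 UMIs in astrocyte-like cells and 5.84 and 8.41 in dividing cells.

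The shared core subunits differed less from class to class than Ezh2. Suz12, which holds the complex together, had 27.5 CPM (21.6 to 34.6) and 27.8 (21.2 to 35.7) in astrocyte-like cells, 50.2 (42.5 to 58.8) and 54.0 (46.3 to 62.7) in activated cells, 104 (92.1 to 116) and 96.2 (88.1 to 105) in dividing cells, and 33.8 (24.1 to 46.0) and 49.9 (40.1 to 61.4) in neuroblasts. Dividing cells were apart from every other class for Suz12, at 3.77-fold (2.91 to 4.94) and 3.46-fold (2.65 to 4.59) the astrocyte-like level. Eed, which binds the trimethylated lysine and stimulates the enzyme, had 33.1 and 26.9 CPM in astrocyte-like cells, 42.6 and 54.7 in activated cells, 57.7 and 60.3 in dividing cells, and 32.9 and 46.0 in neuroblasts. Eed in dividing cells was 1.74-fold (1.34 to 2.29) and 2.24-fold (1.70 to 3.01) that in astrocyte-like cells. For both subunits these intervals lie below those of Ezh2 in the same comparison.

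**Figure D1:**
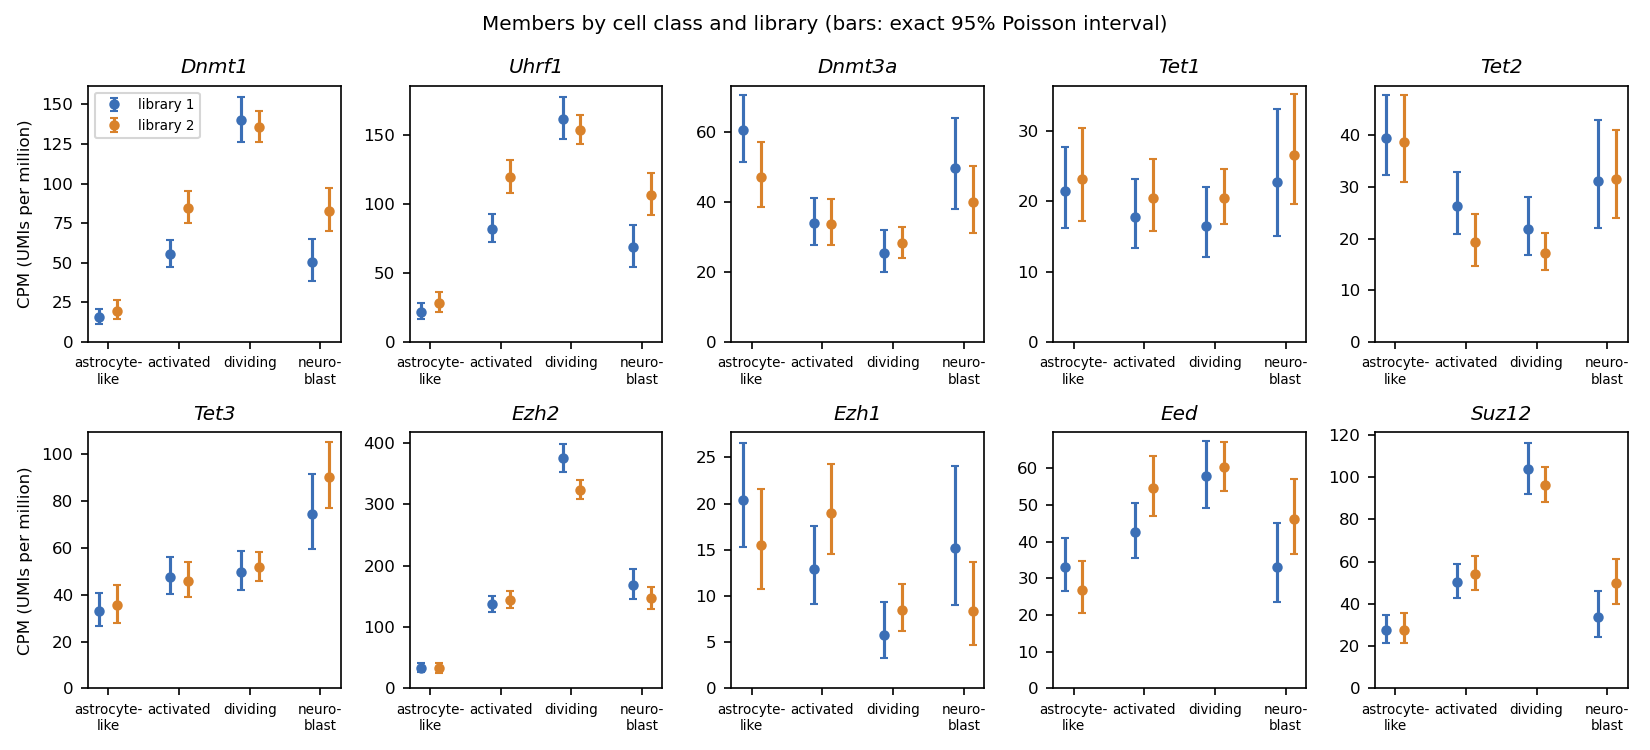
Level of each of the 10 genes (vertical axis, CPM, own scale in each panel) in the 4 cell classes of library 1 (blue) and library 2 (orange), with exact 95% Poisson intervals as bars. Dnmt1, Uhrf1, Ezh2 and Suz12 peak in dividing cells in both libraries (Ezh2 at 375 and 324 CPM), Tet3 peaks in neuroblasts (74.3 and 90.4 CPM), and Dnmt3a and Tet2 are highest in astrocyte-like cells.

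Counted over the whole set, 5 of 10 members were higher in dividing than in astrocyte-like cells (Dnmt1, Uhrf1, Ezh2, Eed and Suz12), where 26% of the 11736 genes with at least 50 UMIs were. Dnmt3a, Tet2 and Ezh1 were lower, 3 of 10 against a background of 28.7%, so the lower calls are not more frequent than over all genes. Tet3 (1.504-fold and 1.458-fold) and Tet1 (0.768 and 0.881 of the astrocyte-like level) were neither. In activated cells Dnmt1, Uhrf1, Ezh2 and Suz12 were higher than in astrocyte-like cells, 4 of 10 against 21.3%, and none was lower, against 19.9%. Tet2 in activated cells missed the lower call narrowly, at 0.668 and 0.498 of the astrocyte-like level. In neuroblasts Dnmt1, Uhrf1, Ezh2 and Tet3 were higher than in astrocyte-like cells, 4 of 10 against 25.6%, and none was lower, against 26.8%. Between neuroblasts and dividing cells, Dnmt1 (2.76-fold and 1.64-fold), Ezh2 (2.22-fold and 2.21-fold) and Suz12 (3.07-fold and 1.93-fold) were lower in neuroblasts, 3 of 10 against 12%, and none was higher, against 11.8%. Uhrf1 missed this call in library 2, at 0.423 and 0.694 of the dividing level, and Tet3 missed the higher call in library 1, at 1.49-fold and 1.75-fold. Under 7 of 10 alternatives Tet3 passed it, and in UMIs per cell it was lower in neuroblasts. These 3 comparisons with astrocyte-like cells share the same astrocyte-like sums. The median log2 ratio of all genes in the dividing comparison was 0.02 and -0.01, and that of the members 0.69 and 0.85.

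The promoters of all 10 members were read because E2F factors, which drive genes of DNA replication, are known to bind a short GC-rich element. RefSeq windows on GRCm38.p6, from 250 bases before to 50 after each annotated start, were searched on both strands for TTTCCCGC, TTTGGCGC, TTTCGCGC and TTTGCCGC. Of 32851 such windows over all genes 2.26% held at least 1 of these words, and 4 of the 15 windows of the members did, 1 each of Ezh2, Dnmt1, Suz12 and Uhrf1. Dnmt1 has 3 windows and Uhrf1 has 2, and their remaining windows held none. The matched windows of Ezh2, Dnmt1 and Uhrf1 lie inside the gene spans given below. Eed, also higher in dividing cells, held none of these words. The 30 bases around each match are shown 5′ to 3′ on the strand of the gene, with the word in capitals:
Ezh2 (minus strand, chr6:47595009-47595038): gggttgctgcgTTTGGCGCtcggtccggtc
Dnmt1 (minus strand, chr9:20952574-20952603): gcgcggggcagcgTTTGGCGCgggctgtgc
Dnmt1 (minus strand, chr9:20952824-20952853): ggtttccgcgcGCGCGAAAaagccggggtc
Suz12 (plus strand, chr11:79992876-79992905): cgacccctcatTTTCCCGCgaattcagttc
Uhrf1 (plus strand, chr17:56304117-56304146): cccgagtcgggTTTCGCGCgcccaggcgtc
The word of Ezh2 begins 3 bases after the start and the first word of Dnmt1 33 bases after it. The second word of Dnmt1 is TTTCGCGC read from the other strand and begins 219 bases before the same start. The words of Suz12 and Uhrf1 begin 219 and 185 bases before theirs. TTTGAA or TTCGAA, letters of the cell cycle homology region (CHR) known from mitotic genes, occurred in 3 of the 15 member windows (1 each of Eed, Dnmt1 and Suz12) and in 19.23% of all windows, a like share. A match describes letters in the window and not a bound site.

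On GRCm38 the members lie on chromosome 9 (Dnmt1, 20907209 to 20959888, minus strand), 12 (Dnmt3a, 3806007 to 3914443, plus), 17 (Uhrf1, 56303321 to 56323486, plus), 10 (Tet1, 62804570 to 62908996, minus), 3 (Tet2, 133463679 to 133545139, minus), 6 (Tet3, 83362373 to 83459084, minus, and Ezh2, 47530139 to 47595341, minus), 11 (Ezh1, 101191115 to 101226463, minus, and Suz12, 79993106 to 80034123, plus) and 7 (Eed, 89954654 to 89980983, minus). All are annotated as protein-coding. Dnmt3a (Dnmt3aos), Tet2, Tet3, Ezh2, Eed and Suz12 overlap an annotated gene on the other strand, and Dnmt1, Tet1, Tet3 and Eed a small gene on their own. Whether the counting used strand is not given in the sources used here. Only Uhrf1 and Ezh1 overlap no other annotated gene.

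Within each family the balance of paralogs moved with the class, a measure that does not depend on total depth. Ezh1 made up 37.8% (exact binomial 95% interval 29.8 to 46.2) and 32.1% (23.3 to 41.8) of Ezh1 plus Ezh2 UMIs in astrocyte-like cells. The Ezh1 share was 8.61% (6.19 to 11.6) and 11.6% (8.99 to 14.6) in activated cells, 1.51% (0.864 to 2.44) and 2.55% (1.87 to 3.38) in dividing cells, and 8.26% (4.97 to 12.7) and 5.36% (3.03 to 8.68) in neuroblasts. Astrocyte-like cells were apart from the other 3 classes in both libraries, and dividing cells from activated cells. Dnmt3a made up 79.7% (73.5 to 85.0) and 70.7% (62.7 to 78.0) of Dnmt1 plus Dnmt3a UMIs in astrocyte-like cells. That share was 38.0% and 28.5% in activated cells, 15.4% (12.2 to 19.03) and 17.2% (14.8 to 19.8) in dividing cells, and 49.6% (40.3 to 58.9) and 32.6% (26.4 to 39.2) in neuroblasts. Tet3 made up 35.2% (29.3 to 41.5) and 36.4% (29.995 to 43.3) of the UMIs of the 3 Tet genes in astrocyte-like cells, and 51.8% to 60.8% in the other 3 classes of both libraries. Transcript lengths differ between paralogs, so each share is read only against the same share in another class.

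**Figure D2:**
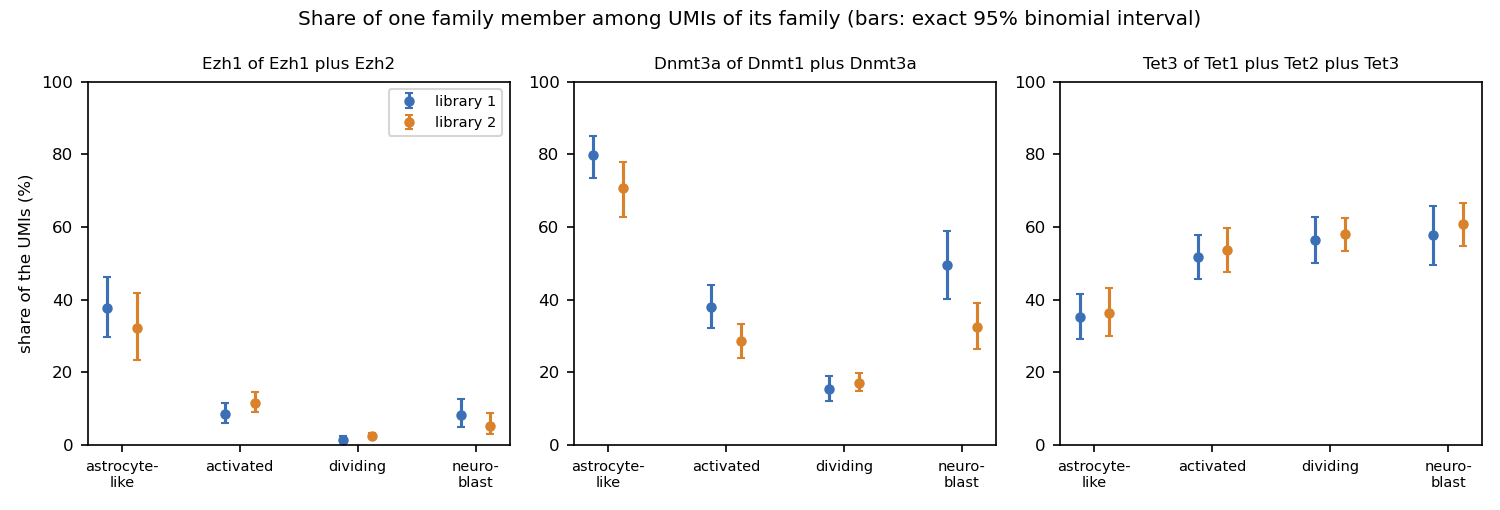
Share (%) of Ezh1 among Ezh1 and Ezh2 UMIs, of Dnmt3a among Dnmt1 and Dnmt3a UMIs, and of Tet3 among the UMIs of the 3 Tet genes, by class and library, with exact 95% binomial intervals as bars. Ezh1 falls from 37.8% and 32.1% in astrocyte-like cells to 1.51% and 2.55% in dividing cells. The Tet3 share is lowest in astrocyte-like cells (35.2% and 36.4%), against 51.8% to 60.8% in the other classes.

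The clusters inside each class did not hold the members evenly. Among neuroblasts, clusters 5 and 8 had less Uhrf1 than cluster 7 and held Ezh2 and Tet3. In cluster 5 Uhrf1 was at 24.7 CPM (12.3 to 44.1) and 14.6 (5.35 to 31.8), Dnmt1 at 26.9 and 46.2, Ezh2 at 148 (114 to 188) and 102 (73.6 to 138), and Tet3 at 101 (73.6 to 135) and 105 (75.7 to 141). Cluster 8 had 23.1 and 48.6 CPM of Uhrf1, 52.1 (30.8 to 82.3) and 53.2 (33.8 to 79.9) of Dnmt1, 127 in each library of Ezh2, and 69.4 and 104 of Tet3. Cluster 7, the third neuroblast cluster, had 158 (121 to 203) and 172 (147 to 200) CPM of Uhrf1, 229 and 175 of Ezh2, and 48.4 and 78.2 of Tet3. The Uhrf1 intervals of clusters 5 and 8 overlap those of the astrocyte-like class in both libraries, and those of cluster 7 overlap those of the dividing class. Dnmt1 of cluster 8 lay above the astrocyte-like class in both libraries, as did that of cluster 5 in library 2, and Ezh2 exceeded that class in all 3.

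Among activated cells, cluster 2, led by Gsx1, Dll3 and Dll1, had 193 and 154 CPM of Ezh2, 130 and 134 of Uhrf1 and 88.0 and 93.2 of Dnmt1. Cluster 3, whose leading genes were the immediate-early and stress genes Junb, Socs3, Nr4a1 and Atf3 and none of its class markers, had 85.0 and 88.4 CPM of Ezh2, 41.4 and 54.1 of Uhrf1 and 30.7 and 38.3 of Dnmt1. Cluster 9 differed between libraries, with 33.0 (16.5 to 59.1) and 119 (92.1 to 150) CPM of Dnmt1. Among dividing cells, cluster 6 (288 cells) had a mean marker log2 fold of 1.69 for dividing and 1.54 for neuroblast markers. Its leading genes included Sp9, Dlx5 and Dlx6, so part of the dividing class resembled neuroblasts. Uhrf1 was 108 (85.0 to 134) and 144 (127 to 163) CPM there and 192 (171 to 215) and 187 (169 to 207) in cluster 4. Tet3 was 66.2 and 59.8 CPM against 42.7 and 46.2, with overlapping intervals. In astrocyte-like cells, cluster 1, led by Gfap and Thbs4, had 50.4 and 44.9 CPM of Ezh2, and cluster 0, led by Cxcl14 and Aqp4, had 24.4 and 19.3. Tet2 was 42.4 (33.2 to 53.3) and 62.7 (48.4 to 79.9) CPM in cluster 0 and 34.3 (23.5 to 48.4) and 17.3 (10.5 to 26.6) in cluster 1. These Tet2 intervals overlap in library 1 and are apart only in library 2.

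**Figure D3:**
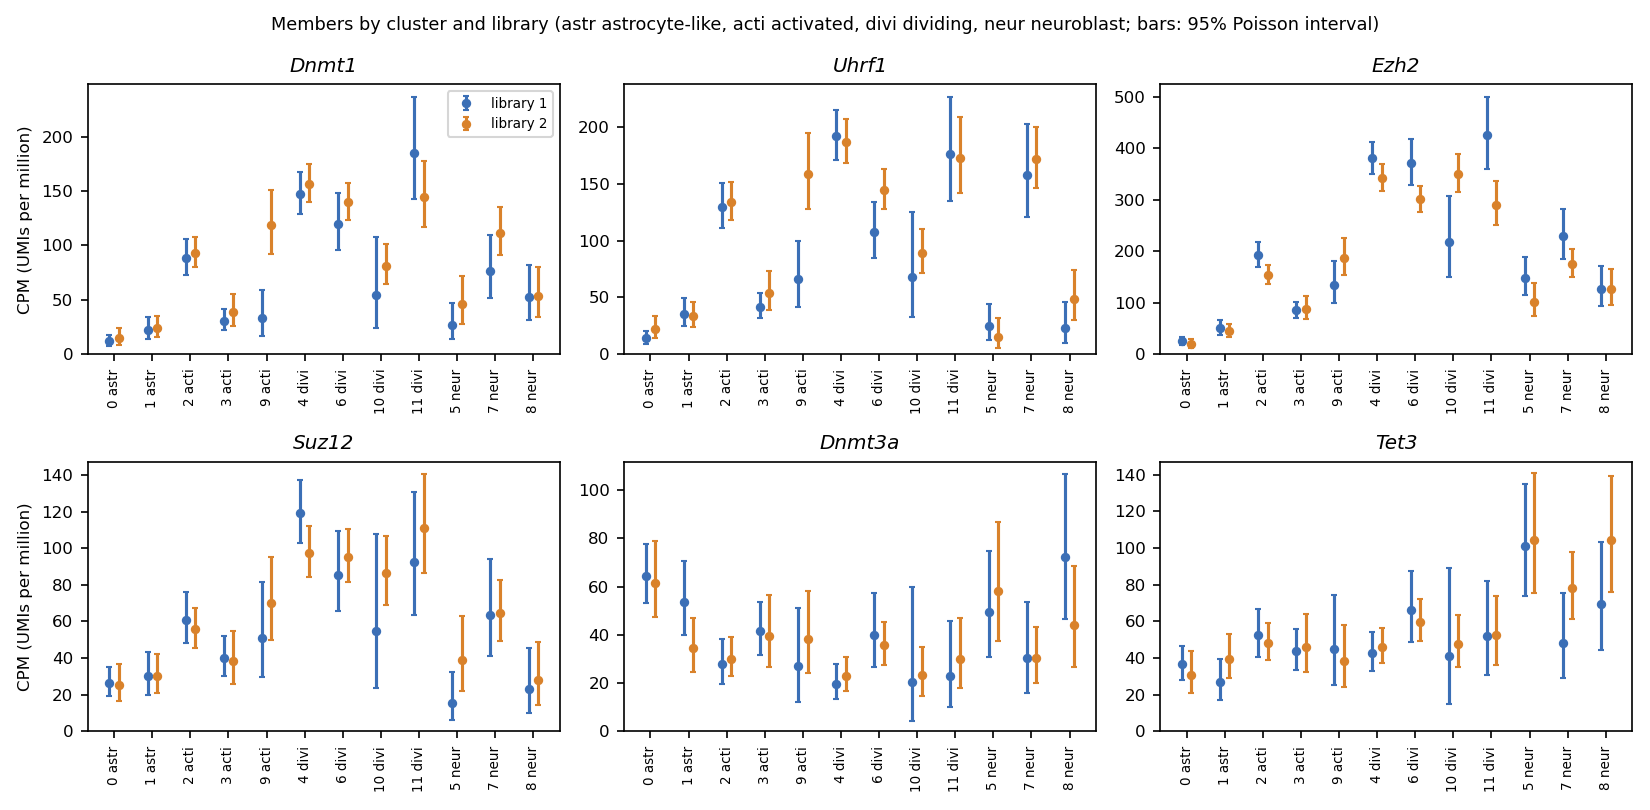
Dnmt1, Uhrf1, Ezh2, Suz12, Dnmt3a and Tet3 (vertical axis, CPM, own scale in each panel) in each cluster of the 4 classes and each library, with 95% Poisson intervals as bars and the class abbreviated beside the cluster number. In neuroblast clusters 5 and 8 Uhrf1 lies between 14.6 and 48.6 CPM while Ezh2 lies between 102 and 148 CPM, and Tet3 reaches 101 and 105 CPM in cluster 5.

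Cells were next split by S phase and G2 and M phase transcripts, lists that hold none of the members. For this split each cell was first thinned to 2000 UMIs, and cells with fewer were left out. A thinned cell with at least 3 UMIs of these lists was taken as cycling and one with none as non-cycling. Non-cycling thus means no such UMI among those kept. In activated cells (221 and 323 cycling, 42 and 24 non-cycling), Dnmt1, Uhrf1 and Ezh2 were higher in cycling cells, 3 of 10 members against 5.37% of all genes. The interval of the Dnmt1 ratio includes 1 in library 2 (0.877 to 4.61). Uhrf1 had 120 (104 to 137) and 144 (130 to 160) CPM in cycling against 25.3 (9.29 to 55.1) and 30.8 (8.40 to 79.0) in non-cycling activated cells. Ezh2 had 177 (158 to 198) and 166 (151 to 183) CPM against 46.4 (23.2 to 83.0) and 38.6 (12.5 to 89.98). Ezh1 was lower in cycling activated cells, 1 of 10 against 21.3%, with intervals that include 1 in both libraries. Non-cycling activated cells did not differ from non-cycling astrocyte-like cells by 1.5-fold in both libraries in Uhrf1 or Ezh2. The ratios were 1.25-fold (0.395 to 3.47) and 1.32-fold (0.284 to 5.21) for Uhrf1. Those for Ezh2 were 1.40-fold (0.616 to 2.99) and 1.16-fold (0.311 to 3.72). With intervals this wide, whether the levels differ is not resolved. In the same comparison Dnmt1 was higher in activated cells, 1 of 10 against 14.2%, and Dnmt3a and Tet2 lower, 2 of 10 against 8.8%, each with intervals that include 1.

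In neuroblasts, Ezh2 and Tet3 were present in cells with no cycle transcript left after thinning. The 39 and 28 non-cycling neuroblasts had 111 (60.9 to 187) and 128 (68.0 to 218) CPM of Ezh2, 95.5 (49.4 to 167) and 137 (75.1 to 231) of Tet3, and 1 and 3 UMIs of Uhrf1. Against non-cycling astrocyte-like cells (176 and 80), Ezh2 was 3.36-fold (1.60 to 6.82) and 3.84-fold (1.55 to 9.77) higher and Tet3 3.16-fold (1.42 to 6.72) and 4.59-fold (1.85 to 12.02) higher. These are 2 of 10 members against 20.9% of all genes, so higher calls are not more frequent among the members here. Eed was lower, 1 of 10 against 12.5%, on few UMIs and with intervals that include 1. Cycling neuroblasts (119 and 222) exceeded non-cycling ones in Dnmt1, Uhrf1, Eed and Suz12, 4 of 10 against 4.81%, and were lower in Tet3 (60.8 and 81.6 CPM), 1 of 10 against 17.7%. The intervals of Eed, Suz12 and Tet3 include 1 in both libraries, and each of these 3 turned direction in at least 1 library under an alternative. That of Dnmt1 includes 1 in library 2 (0.989 to 9.68). Ezh2 did not pass in this comparison, at 1.75-fold (1.005 to 3.31) and 1.32-fold (0.753 to 2.52). Among astrocyte-like cells Uhrf1 was higher in cycling cells (44.4 and 44.6 CPM against 20.2 and 23.3), 1 of 10 against 7.17%, and none was lower, against 3.93%. The interval of this Uhrf1 ratio includes 1 in library 2 (0.820 to 5.18).

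Over cells rich in cycle UMIs, pooled across the classes, Uhrf1 and Dnmt1 were lowest in the bin richest in G2 and M phase UMIs. Ezh2 was lowest in the bin poorest in them. Cells of any of the compared classes with at least 20 cycle UMIs were binned by the share of G2 and M phase UMIs among them. The bins can differ in their mix of classes as well as in phase, and the part of that mix was not tested. Uhrf1 had 184 and 212 CPM in the bin of 0 to 25%, 242 and 216 in that of 25 to 50%, 117 and 126 in that of 50 to 75%, and 65.3 (46.5 to 89.3) and 81.3 (68.0 to 96.6) in that of 75 to 100%. Dnmt1 had 98.4 and 133, 157 and 154, 149 and 146, and then 51.9 and 79.5 CPM in the same bins. Both were lowest in the last bin, which held 70 and 157 cells. Ezh2 had 229 and 215 CPM in the first bin and 347 and 311, 374 and 299, and 352 and 309 in the next 3, so it was lowest in the first bin, and the intervals of the other 3 overlapped within each library. The lowest Suz12 values also fell in the first bin, at 69.4 (55.9 to 85.2) and 65.9 (55.0 to 78.4) CPM. In the last bin Suz12 had 78.7 (57.9 to 105) and 97.6 (82.9 to 114), so first and last overlap in library 1 and are apart in library 2.

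**Figure D4:**
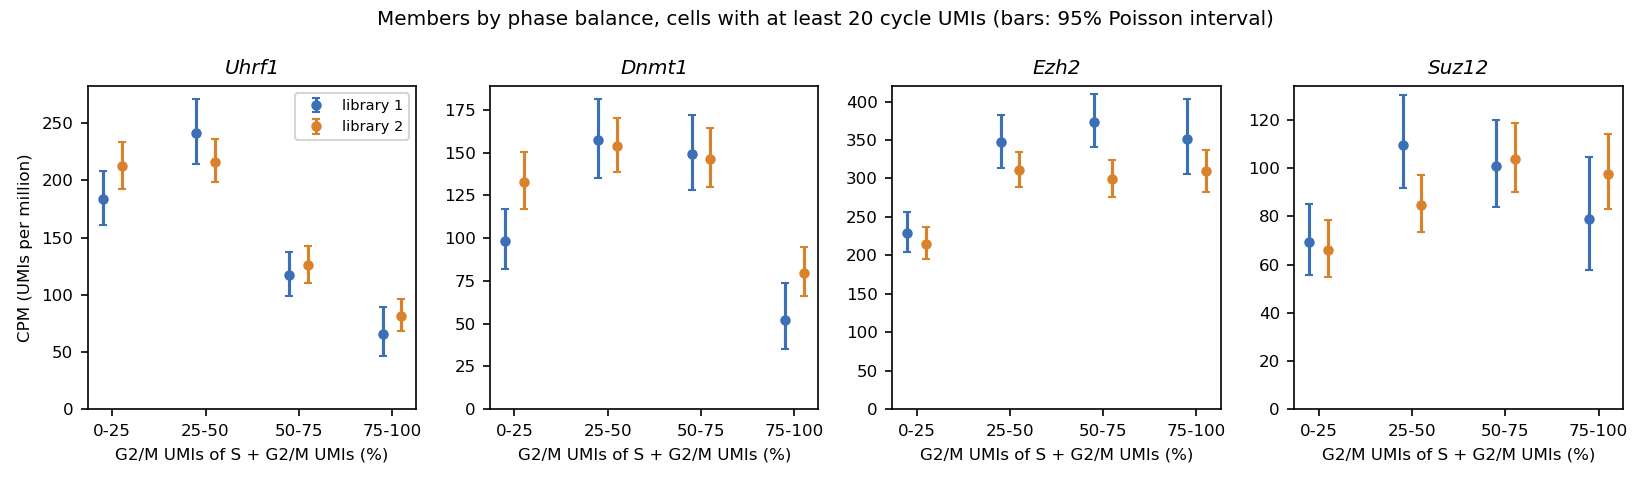
Uhrf1, Dnmt1, Ezh2 and Suz12 (vertical axis, CPM, own scale in each panel) against the share of G2 and M phase UMIs (%), by library, with 95% Poisson intervals as bars. Cells with at least 20 cycle UMIs are pooled across the compared classes. Uhrf1 and Dnmt1 drop to 65.3 and 51.9 CPM in library 1 and 81.3 and 79.5 CPM in library 2 at 75 to 100%, where Ezh2 stays at 352 and 309 CPM.

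The share of cells with a UMI was compared after each cell was thinned to 2000 UMIs, which left out 2 to 78 cells of each of the 4 classes in a library. Ezh2 was seen in 47.4% (exact binomial 95% interval 41.3 to 53.5) and 47.0% (42.7 to 51.3) of dividing cells, 20.3% and 21.8% of activated cells, 22.5% and 21.5% of neuroblasts, and 5.57% (3.91 to 7.67) and 5.16% (3.45 to 7.37) of astrocyte-like cells. Before thinning these Ezh2 shares were 88.7% and 91.0%, 52.3% and 51.2%, 41.0% and 41.7%, and 11.8% and 11.1%. Oligodendrocyte-like cells of library 1, which have left the cell cycle, gave 3.26% (0.678 to 9.23) of 92 thinned cells for Ezh2 and 6.06% of 99 unthinned, at a median of 4210 UMIs. The Ezh2 share of astrocyte-like cells lies inside that interval, so the shares are not told apart at this depth. The same holds for Dnmt1 (3.503% and 2.947% of astrocyte-like cells against 4.35% of oligodendrocytes, interval 1.20 to 10.8) and Uhrf1 (3.03% and 4.42% against 2.17%, interval 0.264 to 7.63). The part of free RNA in these low levels was not tested. Tet3 was seen in 14.18% and 19.15% of thinned neuroblasts and 7.01% and 6.08% of astrocyte-like cells, with 5.43% (1.79 to 12.2) in oligodendrocytes. Ezh1 was seen in 8.70% (3.83 to 16.4) of thinned oligodendrocytes, above the 1.48% (0.405 to 3.75) and 1.47% (0.636 to 2.87) of dividing cells.

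Most members differed little between the libraries. Of 40 comparisons of library 1 with library 2 within a class, 7 had a counting interval without 1, and 4 reached 1.5-fold. Dnmt1 was 1.53-fold (1.26 to 1.86) higher in library 2 in activated cells, 1 of 10 members where 7.14% of all genes were. In neuroblasts Dnmt1 was 1.63-fold (1.20 to 2.24) and Uhrf1 1.56-fold (1.19 to 2.04) higher in library 2, 2 of 10 where 11.3% of all genes were. Neuroblast Ezh1, at 18 and 15 UMIs, was 1.83-fold higher in library 1, 1 of 10 where 15.9% were, with an interval that includes 1. No member reached 1.5-fold in astrocyte-like cells (9.35% and 10.3% of all genes higher and lower in library 1) or in dividing cells (9.62% and 6.77%). In the same classes, cluster 7 held 54 of the library 1 neuroblasts and 140 of the library 2 neuroblasts. Cells of 2 pools of mice stand behind these values, and a library, its age and its preparation cannot be told apart.

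Genes that work with the members were taken from lists chosen with earlier results of these data known, and each is described by its count of calls in dividing against astrocyte-like cells (26% higher and 28.7% lower over all genes). Of 9 measured cofactors of DNA methylation 7 were higher and 1 lower. Hells, a chromatin remodeller needed for methylation, had 160 and 159 CPM in dividing cells against 10.9 and 11.8 in astrocyte-like cells, and Lig1, which seals replicated strands, 208 and 200 against 20.3 and 28.2. Uhrf2, the paralog of Uhrf1, was also higher, at 129 CPM in library 1 against 85.5, and Dmap1, a partner of Dnmt1, was lower. Dnmt3b, the other de novo methyltransferase, was hardly detected, with 13 and 32 UMIs in dividing cells. In activated cells 6 of the 9 cofactors were higher and none lower (21.3% and 19.9% over all genes), and in neuroblasts 7 and none (25.6% and 26.8%).

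The list of methyl-CpG readers and their relatives was divided, with 3 of 8 higher and 2 lower. Mbd3, a subunit of a deacetylase complex, was at 327 CPM in dividing and 101 in astrocyte-like cells of library 1, while Zbtb4 was lower, with 8 UMIs against 35. Of 13 genes acting with or after Tet enzymes 4 were higher and 3 lower. Neil3, a glycosylase, had 140 CPM in dividing cells of library 1 against 3.01, Tdg, which excises oxidised methylcytosine, 160 against 33.5, and Ogt, a partner of Tet proteins, 188 against 632. Of 11 genes of methyl donor supply 3 were higher (Shmt1 and Ahcy among them) and 2 lower (Mthfd1 and Ahcyl2).

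More Polycomb partners were higher than lower in dividing cells. Of 10 measured PRC2 accessory genes 7 were higher and 1 lower. The histone chaperone Rbbp4 had 278 CPM in dividing cells of library 1 against 129, and Phf1, a Polycomb-like protein, was the exception at 3.945 and 3.686 CPM in dividing against 39.9 and 39.6 in astrocyte-like cells. Mtf2, its paralog, was higher, at 85.4 and 88.3 CPM against 39.9 and 37.8, and Phf19, the third paralog, rested on 16 UMIs in dividing and 2 in astrocyte-like cells of library 1. Of 25 subunits of PRC1, the complex that ubiquitinates histone H2A, 13 were higher and 3 lower. Cbx7, a reader of the PRC2 mark, had 2.87 and 5.34 CPM in dividing against 35.0 and 27.8 in astrocyte-like cells, while its paralog Cbx2 had 25.5 and 17.9 against 2.64 and 8.20. Ring1 had 34.8 and 27.1 CPM against 110 and 95.6, and its paralog Rnf2, both E3 ligases of PRC1, 63.1 and 65.1 against 35.0 and 34.6. Bmi1, a regulator of stem cell self-renewal, had 99.4 and 64.9 CPM in dividing against 17.33 and 19.12 in astrocyte-like cells. Of 20 genes that oppose Polycomb 8 were higher and none lower: Wdr5 and Dpy30, shared subunits of histone H3 lysine 4 methyltransferases, were among the higher ones, and Kmt2c, Kmt2d and Ash1l were not called. In activated cells 3 and 1 of the 10 PRC2 accessory genes, and 9 and 4 of the 25 PRC1 subunits, were higher and lower (21.3% and 19.9% over all genes), and in neuroblasts 4 and 1, and 10 and 3 (25.6% and 26.8%).

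As a description with no test, each member was set beside the 9166 genes with at least 200 UMIs by the Pearson correlation of log2(CPM + 10) over 27 points, each a cluster in a library with at least 20 cells. The points share libraries, depth and the cell cycle, and are not independent. Uhrf1 was most like Pcna (r = 0.974), Hells and Tipin, Dnmt1 most like Nasp (0.960), Tyms and Lig1, and Suz12 most like Tipin (0.955), Cenpu and Dek. Ezh2 was most like Sumo2 (0.963), Lmnb1 and Hmgn1. Tet3 was most like Cd1d1 (0.902), Mpped2 and Rbfox2, and Dnmt3a most like Abcc5 (0.878), Tm2d2 and Xpa. Tet2 (Spon1, 0.857), Ezh1 (Dnajb9, 0.797), Eed (Cntln, 0.780) and Tet1 (Zmym2, 0.757) had looser neighbours. Among the members the highest correlations were those of Dnmt1 with Ezh2 (0.909) and with Uhrf1 (0.901), and the lowest those of Dnmt3a with Uhrf1 (-0.777) and with Suz12 (-0.755). Ezh1 and Ezh2 gave -0.663.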

How the data were processed

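The deposited matrix holds UMI counts, whole numbers for each gene in each barcode and not normalized, per the file headers and the values. Per the submitters' processing notes, Cell Ranger 2.0.0 was used, and builds named are GRCm38.p3 and mm10 (role not stated). How cells were called is not given in the sources used here, nor is the merging of libraries. A minimum of 500 genes and a maximum of 10% mitochondrial UMIs removed 9 and 13 barcodes. Scrublet, at an expected rate of 1.5%, removed 15 (0.811%) and 11 (0.527%) called doublets.

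For clustering, each cell was scaled to a total of 10000 and put on a log scale. Of the genes, 2000 with the highest dispersion, without the members and their partner lists, gave 30 principal components, a graph of 15 neighbours and Leiden clusters at resolution 1 (Python 3.11.15, scanpy 1.11.5, leidenalg 0.10.2, scipy 1.17.1, seed 1). A cluster was given the class whose markers had the largest mean log2 fold (159 markers of 14 classes), with at least 3 at 1.5-fold and no other class holding more of the 10 leading genes. That scoring rule came from earlier work that had seen the clusters. Clusters 3, 9 and 11 had none of their own markers among the leading genes, and cluster 14 stayed unnamed.

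UMIs were summed per class and library and divided by the class total (CPM). Intervals are exact Poisson, exact binomial (Clopper-Pearson), or, for a ratio, binomial conditional on both counts, at 95%. The 1.5-fold rule was applied to 11736 genes with at least 50 UMIs over the 4 classes. The members, the lists and the 1.5-fold rule were chosen with earlier results of these data known. Beside all 10 members, the text names of each list mainly the 3 top and the 3 bottom genes by the ratio of dividing to astrocyte-like cells. Mtf2, Bmi1 and Rnf2 were added after their values were seen, and some list genes are not reported here. The counting and ratio steps were tested on simulated data.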

Additional observations from a re-analysis of the deposited data

Results flagged for a closer look

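UMIs of the members were also present in cells that no comparison above uses, above the 3 counts that an observed 0 allows. Summed over all 10 members there were 94 UMIs in the 99 oligodendrocytes of library 1 and 17 in the 9 of library 2, 42 and 68 in the 17 and 32 oligodendrocyte precursors, 38 in the 13 ependymal cells of library 2, and 5 in the 4 microglia of library 2. The unnamed cluster 14, whose 35 cells all come from library 2 and are led by Eomes and Elavl2, held 195, of which Ezh2 made up 67, Uhrf1 32 and Dnmt1 29. In the oligodendrocytes of library 1 the order differed from that of the lineage classes: Dnmt3a had 19 UMIs, Eed 16, Ezh1 14, Uhrf1 11 and Ezh2 6.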

How the results depend on the processing

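No paired analysis was possible because there was 1 library per age and no library number is tied to a sample. The result that depended on scaling was the lower level of Dnmt3a, Tet2 and Ezh1 in dividing cells. It held in 9 of 10 alternatives, and in mean UMIs per cell, where deeper cells count for more, the log2 ratio to astrocyte-like cells turned to 0.18 and 0.64 for Dnmt3a, 0.58 and 0.21 for Tet2, and, in library 2, 0.52 for Ezh1. That scale also turned activated Dnmt3a (0.11) and Ezh1 (0.28) in library 1, Dnmt3a (-0.42, library 1), Tet2 (-0.22) and Tet3 (-0.30, both library 2) in neuroblasts against dividing cells, and Tet3 (0.015, library 1) in cycling neuroblasts. On it 7 members were higher in activated cells, 0 lower in dividing cells, and 6 lower in neuroblasts than in dividing cells. Lower in activated cells was 1 member in place of 0 with the stricter cell filter, doublets kept, resolution 0.5, resolution 2, cell cycle lists out of the clustering, thinned cells, the mean of each cell's own CPM and median-of-ratios size factors, and 2 without clusters 3, 9 and 11, an alternative chosen after seeing the data. Lower in neuroblasts than in astrocyte-like cells was 1 with thinned cells. Against dividing cells, neuroblasts had 1 member higher with the stricter filter and without clusters 3, 9 and 11, 2 with doublets kept, thinned cells and the cells' own CPM, 3 without cycle lists and 4 at resolution 2, and 5 lower with doublets kept, at resolution 2 and with thinned cells. The Ezh1 share in activated cells was 2.84% and 7.22% with the stricter filter, 6.11% without cycle lists and 3.47% without clusters 3, 9 and 11 (library 1), and 8.90% and 8.77% at resolution 0.5 and 2 (library 2). Cycling contrasts on few cells turned in neuroblasts for Tet2 (0.033 strict, 0.71 thinned), Tet3 (0.072 strict) and Eed (-0.080 thinned) in library 2, Suz12 (-0.19 thinned in library 1, -0.71 with doublets kept in library 2), and in astrocyte-like cells for Dnmt1 (-0.25, resolution 2, library 1), Ezh1 (1.17) and Suz12 (-0.050, both strict, library 2). The cause was not tested. The higher calls of Dnmt1, Uhrf1, Ezh2 and Suz12 in activated, of these and Eed in dividing, and of Dnmt1, Uhrf1, Ezh2 and Tet3 in neuroblasts held in 10 of 10 alternatives, as did lower Dnmt1, Ezh2 and Suz12 in neuroblasts than in dividing cells. Few UMIs of Ezh1 and few non-cycling cells limit those values.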

Other observations

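Loci known to be silenced by Polycomb or by DNA methylation in the body were read in the same cells, as values only. Of 40 Hox and Ink4 genes 36 had 0 UMIs in all 3889 cells. Cdkn2a, which encodes the cell cycle inhibitor p16 and Arf, had 57 UMIs: 0 and 0 in astrocyte-like cells, 4 and 9 in activated cells, 12 and 27 in dividing cells, and 1 and 1 in neuroblasts of library 1 and library 2. Against a floor of 3 UMIs per library in astrocyte-like cells, Cdkn2a was at least 3.81-fold and 3.64-fold higher in dividing cells, the class with the highest Ezh2. Cdkn2b, its neighbour, had 47 UMIs, with 5 and 7 in astrocyte-like, 11 and 10 in activated, 1 and 5 in dividing cells, and 1 and 2 in neuroblasts. Of 20 germline genes 10 had 0 UMIs and 18 fewer than 10. Sycp2, a protein of the meiotic chromosome axis, had 37 UMIs, of which 24 and 7 fell in astrocyte-like cells.

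Over classes with at least 50 cells in a library, Ezh1 was highest in oligodendrocytes, on 14 UMIs in 1 library. Those of library 1 had 32.5 CPM (17.8 to 54.5) of Ezh1 and 13.9 (5.11 to 30.3) of Ezh2, the only such class in which Ezh1 UMIs outnumbered those of Ezh2. The 2 intervals overlap, and that of Ezh1 overlaps those of astrocyte-like cells (15.3 to 26.5 and 10.7 to 21.6). Neither order is thus resolved.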
